A study of Mus musculus with 12 samples.

Results

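MHC class I antigen presentation genes were followed in the cerebral cortex of mice lacking Dnmt1 or Dnmt3a in the oligodendrocyte lineage. The genes were taken by symbol: the heavy chains H2-K1 and H2-D1, the light chain B2m, the peptide transport and loading genes Tap1, Tap2 and Tapbp, the immunoproteasome subunits Psmb8, Psmb9 and Psmb10, and the regulator Nlrc5. All 10 were found, with 1 row each, among 23354 gene symbols, and 9 passed the minimum mean of 0.5 FPKM (fragments scaled to transcript length and to the mapped fragments of the library) used for testing; Nlrc5 did not. Poly(A) RNA of whole cortex was sequenced from 12 C57BL/6 mice at postnatal day 16, 3 biological replicates in each of 4 groups. Dnmt1 conditional knockout (CKO) mice were Olig1cre/+;Dnmt1flox/flox, and their littermate controls were Olig1+/+;Dnmt1flox/flox. Dnmt3a CKO mice were Olig1cre/+;Dnmt3aflox/flox, with Olig1+/+;Dnmt3aflox/flox littermates as controls. All mice, controls included, carried the floxed alleles of their line. The cre sits at the Olig1 locus, so only the CKO mice carried it, and deletion is directed to the oligodendrocyte lineage while the RNA came from all cells of the cortex.

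MHC class I molecules display fragments of a cell's own proteins at its surface, where cytotoxic T cells and natural killer cells read them. The peptides are cut by the proteasome, whose catalytic subunits are exchanged for the immunoproteasome subunits under interferon, carried into the endoplasmic reticulum by the Tap1-Tap2 transporter, and loaded with the help of tapasin (Tapbp) onto a heavy chain paired with beta-2 microglobulin (B2m). Nlrc5 is a transactivator of class I promoters, and interferon-responsive factors and NF-kB act on the same promoters. In brain these genes are low in most neurons and glia at rest, higher in microglia and endothelium, and inducible by interferons. Dnmt1 copies DNA methylation onto new strands at replication and Dnmt3a sets new methylation.

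The deleted genes were lower in the CKO libraries with 1 exception among the controls. Dnmt1 was at 9.78 to 10.6 FPKM in the Dnmt1 control libraries and at 7.26 to 9.11 FPKM in the Dnmt1 CKO libraries. Dnmt3a was at 13.6 to 15.4 FPKM in the Dnmt3a CKO libraries and at 31.1 and 28.7 FPKM in Dnmt3a control replicates 1 and 3, but the library labelled Dnmt3a control replicate 2 was at 16.9 FPKM, close to the CKO libraries. Results that use the Dnmt3a controls are therefore given with and without that library. Olig1, the cre locus, stood at 49.8 FPKM in that library, against 48.4 and 44.1 FPKM in replicates 1 and 3 of its group. With Dnmt3a deleted, Olig1 measured 30.6, 38.8 and 32.2 FPKM. The reason for the low Dnmt3a value in control replicate 2 was not tested. FPKM summed to between 342274 and 417856 per library, and the relative depth read from the steps of low values lay between 0.856 and 1; the number of reads was not given, so no counting interval was set on a value. In each library 120 to 136 rows with a mean above 5 FPKM were listed at exactly 0. The labelled tissue was checked by markers: the summed FPKM of 8 neuronal markers lay between 1860 and 2023 over the 12 libraries and that of 8 astrocyte markers between 854 and 999.6. The sum of 6 choroid plexus markers varied within the groups, from 3.03 FPKM in Dnmt3a CKO replicate 3 and 6.11 FPKM in Dnmt3a control replicate 3 to 419 FPKM in Dnmt3a CKO replicate 2, with 84.3 to 275 FPKM in the Dnmt1 line. All 10 oligodendrocyte markers were lower in the Dnmt1 CKO cortex, with a median log2 difference of −1.995, and none passed the test in the Dnmt3a line.

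The promoters of the 4 genes that passed the test in the Dnmt1 line are shown first, to set side by side the starts of the genes on which the results turn. Each line gives the 250 bases before the RefSeq start on the gene's own strand, 5′ to 3′, in GRCm38.p6. Capitals mark AANNGAAA, the core bound by interferon regulatory factors, GGGATTCCC, an NF-kB word, TGACG, the core of a cyclic AMP response element, and CCAAT, bound by NF-Y, each searched on both strands.
H2-K1, chr17:34000348-34000597, minus strand: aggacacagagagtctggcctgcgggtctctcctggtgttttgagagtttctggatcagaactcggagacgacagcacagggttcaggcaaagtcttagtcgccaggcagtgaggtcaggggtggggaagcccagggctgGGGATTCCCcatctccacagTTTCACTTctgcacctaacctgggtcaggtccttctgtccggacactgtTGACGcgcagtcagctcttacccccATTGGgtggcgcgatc
H2-D1, chr17:35262844-35263093, plus strand: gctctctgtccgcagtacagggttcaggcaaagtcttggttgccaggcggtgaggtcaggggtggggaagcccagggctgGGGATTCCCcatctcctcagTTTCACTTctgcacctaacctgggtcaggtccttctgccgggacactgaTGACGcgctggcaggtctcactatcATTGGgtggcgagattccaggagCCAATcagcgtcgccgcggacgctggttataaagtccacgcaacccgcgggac
B2m, chr2:122147437-122147686, plus strand: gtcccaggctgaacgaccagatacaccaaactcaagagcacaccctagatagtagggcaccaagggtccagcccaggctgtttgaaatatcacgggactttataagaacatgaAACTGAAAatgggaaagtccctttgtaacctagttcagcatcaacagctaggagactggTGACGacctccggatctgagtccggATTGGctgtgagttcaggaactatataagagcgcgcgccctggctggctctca
Tap1, chr17:34187306-34187555, plus strand: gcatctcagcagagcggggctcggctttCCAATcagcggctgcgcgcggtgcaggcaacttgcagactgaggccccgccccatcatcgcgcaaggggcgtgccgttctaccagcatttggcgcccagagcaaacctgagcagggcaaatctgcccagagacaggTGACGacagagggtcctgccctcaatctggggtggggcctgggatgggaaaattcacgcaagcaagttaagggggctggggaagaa

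H2-K1 and H2-D1 hold the same order of words, with GGGATTCCC followed by TTTCACTT (the interferon core read on the other strand), TGACG and the other-strand reading of CCAAT, and their windows share an unbroken run of 47 bases around the first of these. H2-D1 has a further CCAAT, as has H2-K1 when its other RefSeq start, 14 bases downstream, is used. Among 32536 different windows of the same length in the RefSeq table, GGGATTCCC occurred in 0.301%, AANNGAAA in 21.3%, TGACG in 17.9% and CCAAT in 33.8%. The first is also the longest of the 4 words, and its letters were settled with these sequences in view. B2m holds AACTGAAA, TGACG and the other-strand reading of CCAAT, with no match to GGGATTCCC. Tap1 holds TGACG and CCAAT and neither of the other words in this window. Of the members that did not pass the test, Psmb9 holds the same words as Tap1, Tapbp holds CCAAT, and Psmb8 and Psmb10 hold none of the 4 in their windows. Psmb8 too lay higher in every Dnmt1 CKO library than in every control, with a mean 44.9% higher. Missing the threshold is therefore not the same as no change. The Tap1 window shares 225 bases with that of Psmb9, which lies on the other strand, so both genes start from 1 stretch of DNA. CpG dinucleotides numbered 9 in the H2-K1 window, 14 in H2-D1, 8 in B2m and 14 in Tap1, against a median of 6 over all windows. Windows were available for 8 of the 10 genes. Of those that did not pass, Psmb9 had 12 CpG, Psmb8 10, Tapbp 10 and Psmb10 3, the fewest. The CpG counts of genes that passed and genes that did not thus overlapped. These matches describe the letters in the windows, and neither binding nor methylation was measured.

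In the GENCODE M21 annotation of GRCm38, 7 of the 10 genes lie in the MHC region of chromosome 17. H2-K1 occupies 33996017 to 34000347 on the minus strand and H2-D1 35262730 to 35267499 on the plus strand. Tap1 (34187553 to 34197225), Psmb8 (34197721 to 34201454) and Tap2 (34203527 to 34216321) follow each other on the plus strand, with Psmb9 (34181987 to 34187764) on the minus strand overlapping the start of Tap1, and Tapbp lies at 33915899 to 33929292. B2m is on chromosome 2 (122147686 to 122153083), Psmb10 on chromosome 8 (105935735 to 105938444) and Nlrc5 on chromosome 8 (94434356 to 94527272). All 10 are protein-coding. The RefSeq start used for the H2-D1 window lies 364 bases into a GENCODE transcript, that of Psmb8 405, that of Tapbp 146 and that of Psmb10 52. The windows of H2-D1, Psmb8 and Tapbp lie wholly inside the annotated genes, and words before the annotated starts of these genes were not searched. Heavy chains have close copies: 9.63% of the 50-base words in H2-K1 transcripts and 12.8% of those in H2-D1 also occur in another annotated gene, 141 of them shared by H2-K1 and H2-D1, so part of their reads could be assigned to either. The share is higher in Tapbp, 23.2%, most often with Gm19412 (762 words). It is 11.9% in Psmb8, 11.6% in Tap2, 4.19% in Psmb9, 3.33% in Tap1 and 0.339% in Nlrc5. B2m and Psmb10 share none. The library kit does not mark strand, so reads where Tap1 and Psmb9 overlap cannot be told apart.

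On the FPKM scale, which is per transcript length, the genes spanned a wide range in cortex. In the Dnmt1 control libraries, B2m was highest (47.2 ± 1.37 FPKM, SD, n = 3), followed by Psmb10 (12.98 ± 0.918), H2-D1 (8.61 ± 0.767), H2-K1 (6.50 ± 0.586) and Tapbp (6.14 ± 0.274). Tap2 (1.56 ± 0.166), Psmb8 (0.773 ± 0.0343), Tap1 (0.583 ± 0.101) and Psmb9 (0.520 ± 0.146) lay lower, and Nlrc5 was at 0.0601 ± 0.0136. H2-K1 and Tapbp differed by less than their spread, as did Tap1 and Psmb9. The light chain stood above both heavy chains in every library.

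**Figure D1:**
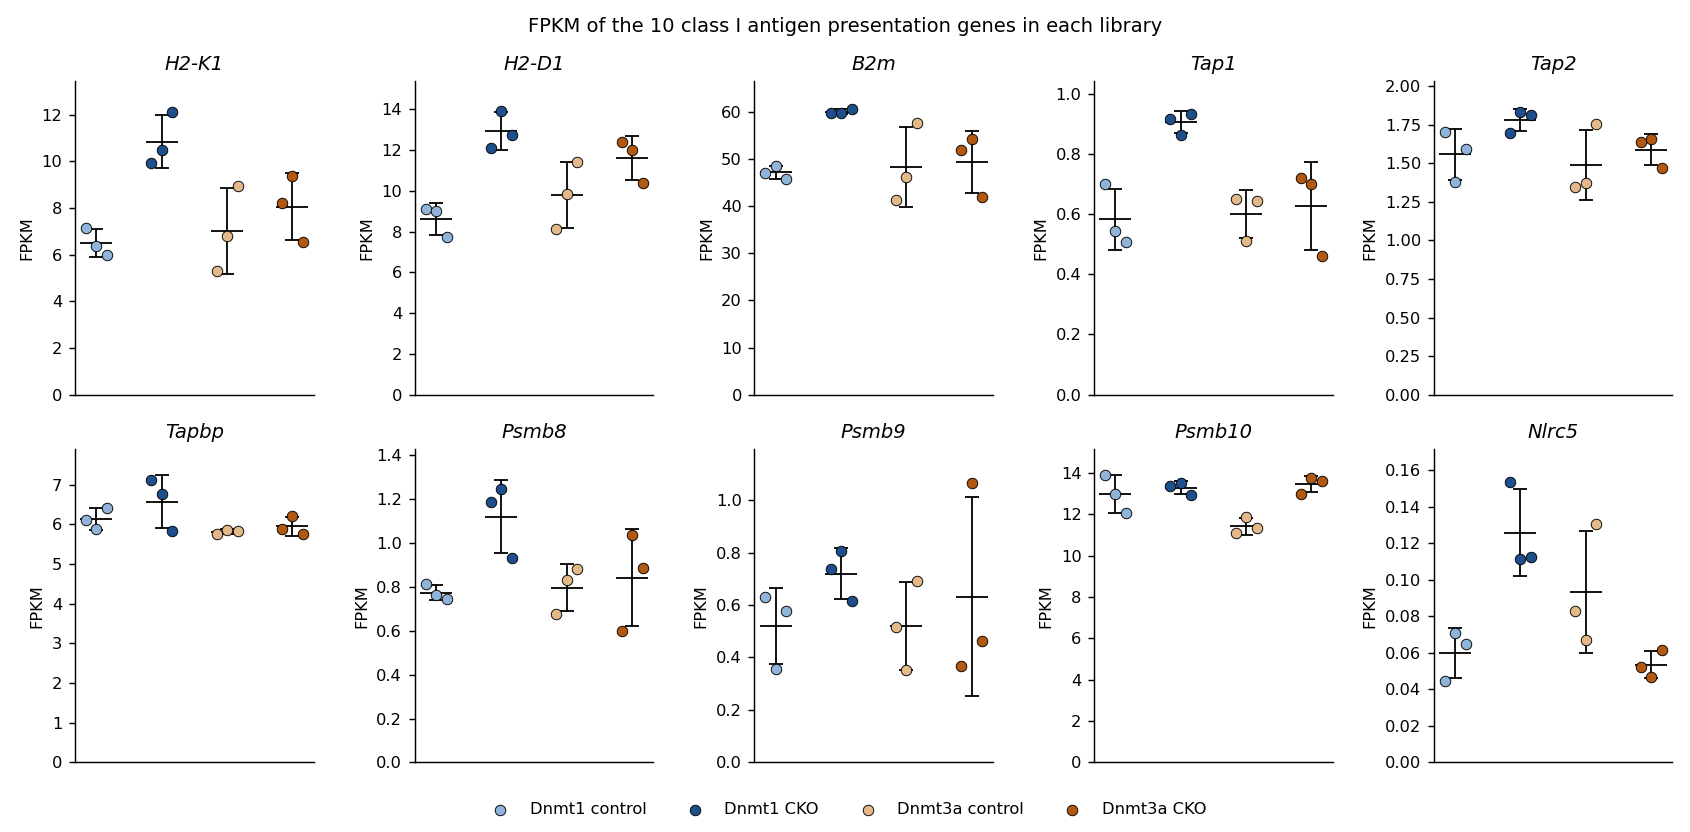
FPKM (vertical axes, each from 0) of the 10 class I antigen presentation genes, with 1 point per library in the 4 groups and bars for the mean ± SD (n = 3). H2-K1, H2-D1, B2m, Tap1 and Psmb8 lie higher in all 3 Dnmt1 CKO libraries than in the 3 Dnmt1 controls, while Psmb10 separates only in the Dnmt3a line and Nlrc5 in opposite directions in the 2 lines.

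The comparison of Dnmt1 CKO with its littermate controls asks how class I presentation genes stood in a cortex whose oligodendrocyte lineage had lost Dnmt1. Both heavy chains, the light chain and Tap1 rose, by 0.35 to 0.73 on the log2(FPKM + 0.1) scale, while Tap2, Tapbp and the 3 immunoproteasome subunits did not pass the test. The 4 genes that passed were all higher, against 0.845% of all 14075 symbols tested that were called higher at 10% FDR (2.3% were called lower and 3.15% in either direction). The median of the 9 genes tested was 0.42 and that of all rows −0.02; all 9 lay above 0, as did 41.1% of all rows. In 5 of the 9, every CKO library lay above every control, which 6.38% of all rows did.

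H2-K1, a classical heavy chain, was at 7.14, 6.36 and 5.99 FPKM in the Dnmt1 controls and at 9.94, 10.5 and 12.1 FPKM in the Dnmt1 CKO libraries. The groups did not overlap, and the mean was 66.9% higher in the CKO. The log2 difference was 0.73 ± 0.10 (SE), with an adjusted p of 0.025 by limma with Benjamini-Hochberg adjustment, and this was the largest of the 9 genes. The second classical heavy chain, H2-D1, measured 9.11, 9.01 and 7.73 FPKM in its controls against 12.1, 13.9 and 12.7 FPKM with Dnmt1 deleted. It too was clear of the controls in all 3 CKO libraries. Its log2 difference was 0.58 ± 0.08 and its adjusted p 0.032 (limma).

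B2m, the chain common to all class I molecules, was at 47.2, 48.6 and 45.8 FPKM in the Dnmt1 controls and reached 59.9, 59.8 and 60.7 FPKM in the CKO libraries. No library came near the other group, and its mean was 27.4% higher. The log2 difference of 0.35 ± 0.03 had the smallest adjusted p of the 9 genes, 0.0049 (limma). B2m thus rose by less than either heavy chain, and passed when any 1 of the 6 libraries was left out.

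Of the transport and loading genes, Tap1, which forms the peptide transporter together with Tap2, was at 0.698, 0.544 and 0.507 FPKM in the Dnmt1 controls and reached 0.917, 0.863 and 0.932 FPKM in the CKO libraries. All 3 CKO libraries were higher, and the log2 difference of 0.57 ± 0.11 passed narrowly, with an adjusted p of 0.094 (limma). Tap2 measured 1.70, 1.38 and 1.59 FPKM in control cortex against 1.70, 1.83 and 1.81 FPKM in CKO cortex, where the highest control lay just above the lowest CKO library. Tap2 had a log2 difference of 0.19 (95% interval −0.04 to 0.41, adjusted p = 0.43). Tapbp, the tapasin that bridges transporter and heavy chain, ranged from 5.88 to 6.43 FPKM in the controls and from 5.83 to 7.13 FPKM in the CKO libraries, with 1 CKO library below every control. Its log2 difference was 0.09 (−0.12 to 0.30, adjusted p = 0.68).

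Among the immunoproteasome subunits, Psmb8 (the beta-5i subunit) was at 0.811, 0.764 and 0.744 FPKM in the Dnmt1 controls and reached 1.18, 1.25 and 0.929 FPKM in the CKO libraries. Its groups did not overlap, with CKO replicate 3 the closest to the controls, and its log2 difference of 0.47 ± 0.12 did not pass (adjusted p = 0.14, limma). Psmb9 (beta-1i) measured 0.629, 0.355 and 0.578 FPKM in control cortex against 0.737, 0.806 and 0.615 FPKM in CKO cortex. The lowest CKO library lay below the highest control, and the log2 difference was 0.42 (−0.07 to 0.91, adjusted p = 0.40). Psmb10 (beta-2i), far higher in cortex than the other 2 subunits, ranged from 12.1 to 13.9 FPKM in the controls and from 12.9 to 13.5 FPKM in the CKO libraries. All of its CKO values fell inside the range of the controls, with a log2 difference of 0.04 (−0.10 to 0.18, adjusted p = 0.84).

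Nlrc5, the transactivator of class I genes, was near the lower end of what these libraries measured, at 0.0447, 0.0707 and 0.0649 FPKM in the Dnmt1 controls and 0.153, 0.111 and 0.113 FPKM in the CKO libraries. In Nlrc5 every CKO library lay above every control, as in 6.38% of the rows that reached the minimum, a set without Nlrc5. Since its mean over all 12 libraries, 0.0832 FPKM, is below the minimum, it was tested only in the fit with no minimum, where the log2 difference was 0.49 ± 0.10 with an adjusted p of 0.14 (limma).

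Leaving out single libraries changed 3 of the 4 calls. H2-K1 no longer passed without Dnmt1 control replicate 2 (adjusted p = 0.12), H2-D1 no longer passed without Dnmt1 control replicate 2, Dnmt1 CKO replicate 2 or Dnmt1 CKO replicate 3 (0.11, 0.10 and 0.13), and Tap1 passed in 1 of 6 such fits (without Dnmt1 control replicate 1, 0.029), while Psmb8 passed without Dnmt1 CKO replicate 3 (0.053). The log2 differences kept their sign in all of these fits, from 0.65 to 0.80 for H2-K1 and from 0.51 to 0.63 for H2-D1. With 3 mice a group, an exact permutation test of 1 gene alone cannot give a two-sided p below 0.1, the value it gave for H2-K1, H2-D1, B2m, Tap1 and Psmb8.

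**Figure D2:**
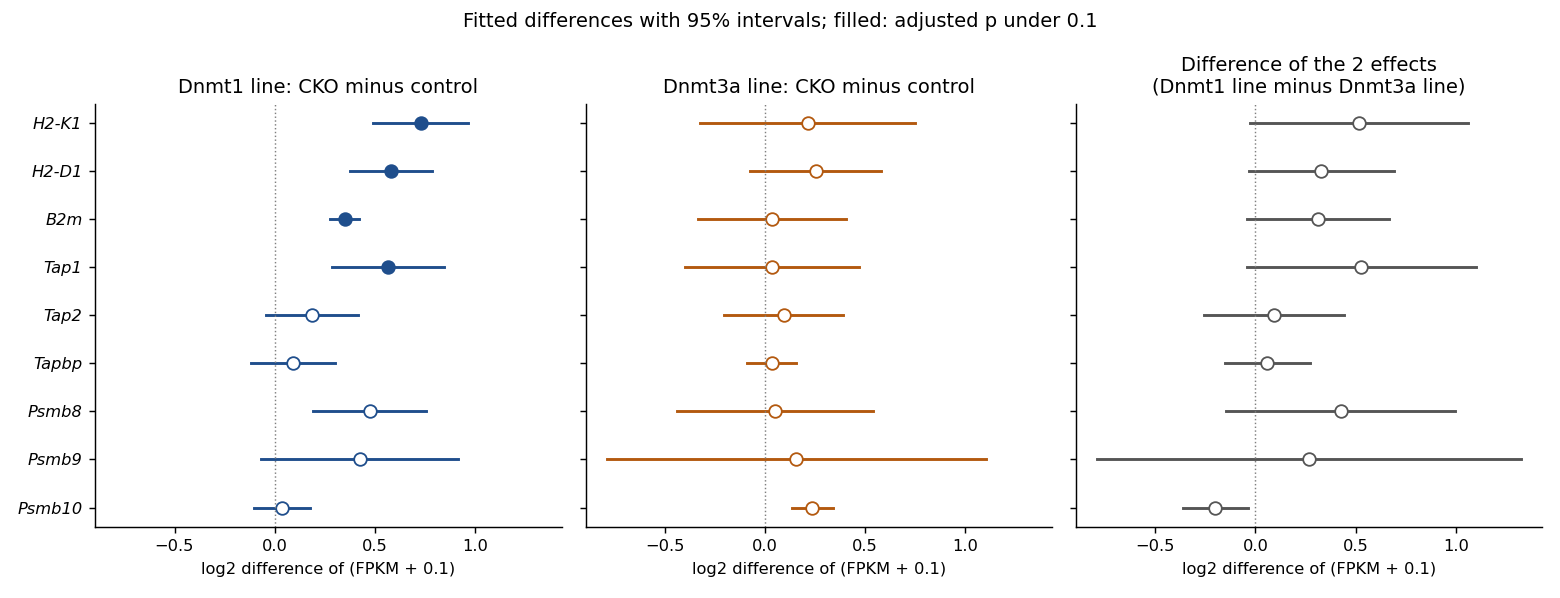
Fitted log2 differences of FPKM + 0.1 (horizontal axes) with 95% intervals for the 9 genes tested, in the Dnmt1 line, in the Dnmt3a line and for the difference of the 2 effects; filled points have an adjusted p under 0.1 (limma). H2-K1, H2-D1, B2m and Tap1 are filled in the Dnmt1 line, and no point is filled in the other 2 panels.

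Other genes of the same pathway were read from lists. Of 34 other class I heavy chain and class I-like genes, 32 were in the table and 16 were tested in the Dnmt1 line. Of these, 2 rose, against 0.845% of all symbols called higher, and none was called lower, with a median of 0.20. Gm11127, an H2-T region class I gene of unknown role, was at 1.56, 1.54 and 1.81 FPKM in the Dnmt1 controls and reached 23.7, 25.0 and 20.8 FPKM in the CKO libraries. Its log2 difference of 3.74 ± 0.09 (adjusted p = 0.00020, limma) far exceeded those of H2-K1 and H2-D1. However, 78.3% of its 50-base words occur in other genes, most often in Gm6034 (521 words) and Gm7030 (495), against 92 in H2-D1 and 42 in H2-K1. The shared words are 3.55% of those in H2-D1 and 1.2% of those in H2-K1. Whether reads of Gm11127 added to the rise of these 2 heavy chains was not tested. Gm7030 rose by 0.92 ± 0.14 (adjusted p = 0.039). Since 57.3% of its words occur in Gm11127, reads of the 2 genes may not be separable, and whether Gm7030 rose apart from Gm11127 was not tested. The nonclassical genes of highest level that did not pass were Fcgrt, the neonatal Fc receptor (−0.06), H2-Q4 (0.35), H2-T24 (−0.10) and H2-T23, the Qa-1 heavy chain (0.48, adjusted p = 0.19).

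No gene of the general machinery around class I was called higher. Over all symbols, 0.845% were called higher and 2.3% lower. Of 14 loading and trimming genes, all tested, none was called higher and 2 fell: the lectin chaperone calreticulin (Calr) by 0.28 ± 0.05 (adjusted p = 0.052, limma) and the disulfide isomerase Pdia3, its partner in the loading complex, by 0.19 ± 0.03 (adjusted p = 0.064). The list had a median of −0.11, with 13 of 14 genes below 0, 8 at an unadjusted p under 0.05, and 9 in which every CKO library lay below every control (14.4% of all rows). None of the 14 constitutive 20S proteasome subunits passed in either direction (median −0.01, 0 at an unadjusted p under 0.05), nor did any of 9 proteasome activator and assembly genes (median −0.01, also 0). Of 25 regulators, among them the interferon receptors, the JAK kinases, NF-kB, RFX and NF-Y subunits, 24 were tested and none passed, with 3 at an unadjusted p under 0.05 and a median of 0.01. Among 12 class II genes 7 were tested and 1 rose, the protease cathepsin S (Ctss, 0.41 ± 0.04, adjusted p = 0.0068), with no call for the class II heavy chains or Cd74. The receptors that read class I were too low to test: 7 of 10 were in the table, summing to 0.365 to 0.425 FPKM in the Dnmt1 controls and 0.796 to 0.863 in the CKO libraries. The receptors named here were named after their values were seen. Lilrb3 went from 0.152, 0.0689 and 0.118 to 0.397, 0.468 and 0.482 FPKM, and Pira2 from a mean of 7.38e-05 to one of 0.110 FPKM. In Klra2, Klrd1, Cd247, Cd8a and Cd8b1 the groups overlapped, and the means of Cd8a and Cd8b1 were lower in the CKO libraries.

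Genes of the interferon response stood higher in the same libraries. Of 36 listed, 35 were in the table and 23 were tested. Of these, 9 rose, against 0.845% of all symbols called higher. All 23 lay above 0, as did 41.1% of all rows, and their median was 0.46. Those that rose were Isg15, a ubiquitin-like modifier (1.44 ± 0.14, adjusted p = 0.0079, limma), Oasl2 (1.34), Irf7, an interferon regulatory factor (1.098), Lgals3bp (1.02), Rtp4 (1.02), the membrane tether Bst2 (0.99), Ifitm3 (0.63) and the RNA sensors Ddx58 (0.49) and Ifih1 (0.45). The summed FPKM of the 35 genes was 34.6 to 38.6 in the Dnmt1 controls and 55.9 to 60.4 in the CKO libraries.

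Cell type markers that moved with the class I genes are given here, and their part in the result was not tested. In whole cortex, more cells of a type and more RNA per cell cannot be told apart. Of 16 microglial markers, 4 rose in the Dnmt1 CKO cortex, the complement genes C1qa (0.34), C1qb (0.42) and C1qc (0.27) and the lipid receptor Trem2 (0.30, adjusted p = 0.099, limma), and none was called lower, with a median of 0.10. Over all symbols, 0.845% were called higher. Of the 16, 11 lay above 0, 7 had an unadjusted p under 0.05, and the lowest was −0.34. Every CKO library lay above every control in 6 (6.38% of all rows) and below every control in 2 (14.4%). The receptors that mark resting microglia had log2 differences of −0.02 for Cx3cr1, −0.16 for P2ry12 and 0.04 for Tmem119, which, like Csf1r (0.03), did not pass; the first 3 are named after their values were seen. The microglial list summed to 204 to 214 FPKM in the Dnmt1 controls and to 222 to 239 in the CKO libraries. Of 16 T, NK and B cell markers, 12 had a mean below 0.1 FPKM and 1 (Cd4) was tested, with the list summing to 1.41 to 2.86 FPKM in the controls and 1.92 to 2.62 in the CKO libraries. Of 10 markers of other myeloid cells 5 were tested and none passed (1 at an unadjusted p under 0.05), and the list summed to 12.9 to 16.7 FPKM in the controls and 16.8 to 17.7 in the CKO libraries. Blood markers summed to 16.7 to 28.1 FPKM in the controls and 9.27 to 15.3 in the CKO libraries, with none of 4 called and 1 of them above 0. Of 10 endothelial markers none passed (5 at an unadjusted p under 0.05, median −0.18, sums of 89.8 to 97.3 and 81.2 to 87.1 FPKM). Of 8 astrocyte markers only the reactive marker Gfap was called higher (0.45, adjusted p = 0.0065, limma), and none was called lower. The astrocyte list did not move as 1: 3 of the 8 lay above 0, with a median of −0.03 and a lowest value of −0.28. Every CKO library lay above every control in 1 astrocyte marker (6.38% of all rows) and below every control in 3 (14.4%).

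**Figure D3:**
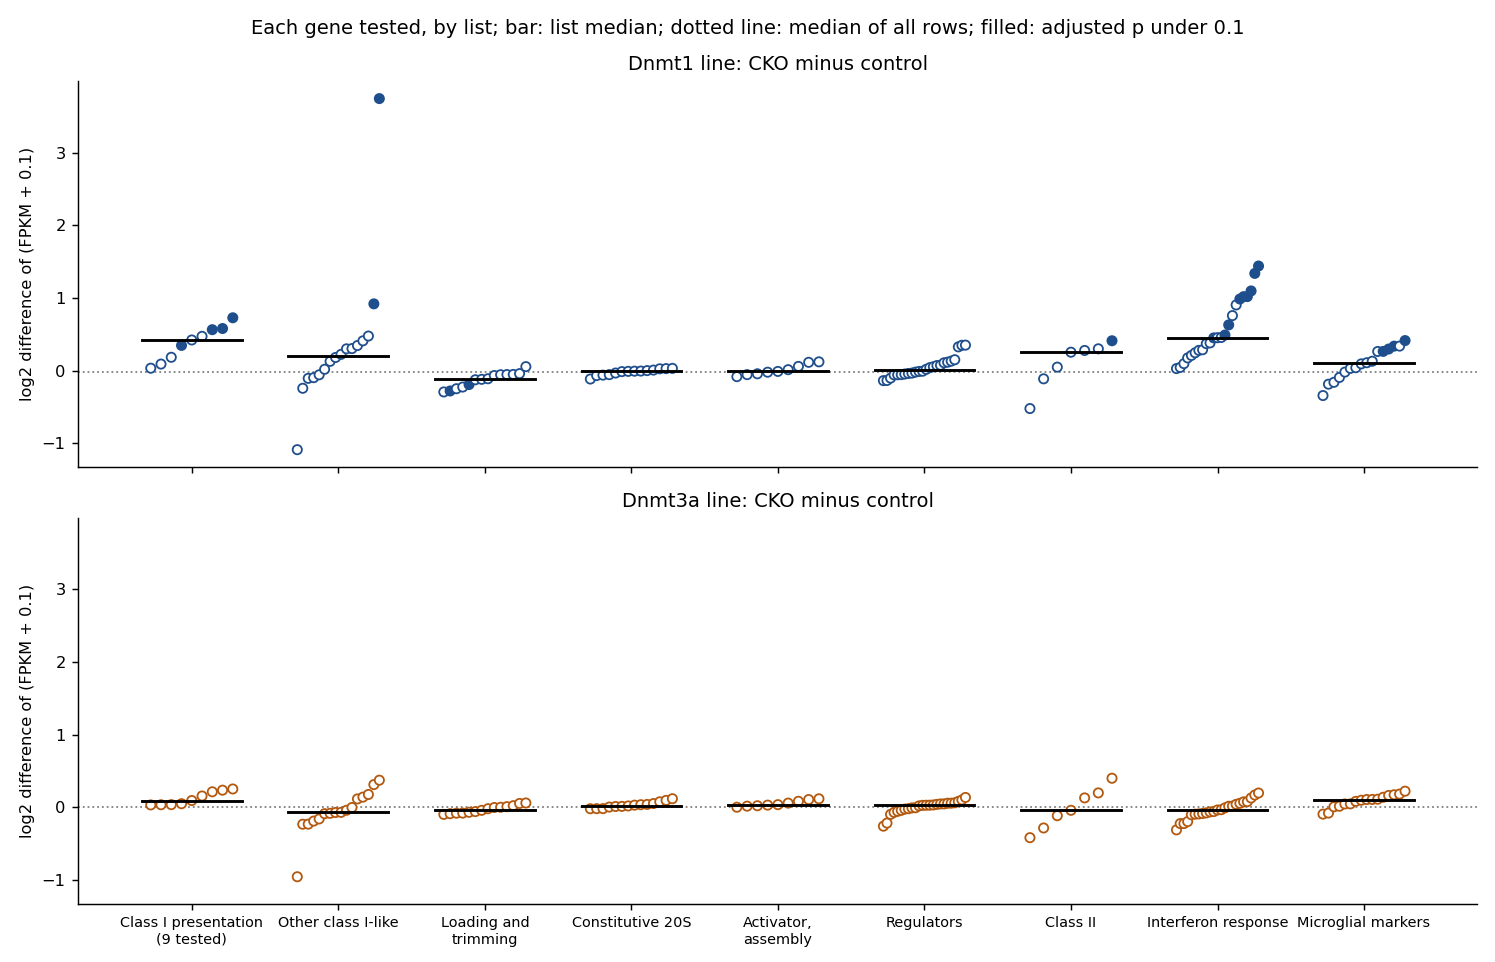
Log2 differences of FPKM + 0.1 (vertical axes) of each gene tested, by list, in the Dnmt1 line (upper panel) and the Dnmt3a line (lower panel); bars are list medians, dotted lines the median of all rows, and filled points have an adjusted p under 0.1 (limma). In the Dnmt1 line the class I presentation and interferon response medians (0.42 and 0.46) stand above those of the constitutive 20S and regulator lists (−0.01 and 0.01), and no point is filled in the Dnmt3a line.

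The comparison of Dnmt3a CKO with its littermates asks the same of the de novo methyltransferase. None of the 9 genes passed, and 0.0142% of all symbols did (2 of 14075). The 9 log2 differences ran from 0.03 to 0.25 with a median of 0.09 (all rows 0.01), all above 0 as were 53% of all rows, and 1 of them had an unadjusted p under 0.05. Without the library labelled Dnmt3a control replicate 2 none passed either, with a median of 0.04, a range of −0.06 to 0.26 and 7 of 9 above 0. That fit also called none of the 3 genes Dnmt1, Dnmt3a and Olig1. Yet Dnmt3a was at 13.6 to 15.4 FPKM in the Dnmt3a CKO libraries and at 31.1 and 28.7 FPKM in control replicates 1 and 3. The lack of a call in this line is therefore not the same as no change.

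H2-K1 was at 5.28, 6.81 and 8.93 FPKM in the Dnmt3a controls and at 8.22, 9.38 and 6.52 FPKM in the Dnmt3a CKO libraries, so the groups overlapped widely. Its log2 difference was 0.21 (95% interval −0.32 to 0.75, adjusted p = 0.83, limma). H2-D1 measured 8.14, 9.85 and 11.4 FPKM in control cortex against 12.4, 12.02 and 10.4 FPKM in CKO cortex, with only CKO replicate 3 inside the control range (0.25, −0.08 to 0.58, adjusted p = 0.71). B2m measured 41.3, 46.2 and 57.8 FPKM in control cortex against 51.9, 54.4 and 42.0 FPKM in CKO cortex (0.03, −0.33 to 0.40, adjusted p = 0.97). The 3 genes shared their spread: control replicate 3 was the highest control in each of them, control replicate 1 the lowest, and CKO replicate 3 the lowest of the CKO libraries. For H2-K1 and B2m the intervals include both no difference and a difference as large as that fitted in the Dnmt1 line.

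Psmb10 was the 1 gene whose Dnmt3a groups separated upward. It was at 11.1, 11.9 and 11.3 FPKM in the Dnmt3a controls and reached 13.01, 13.8 and 13.6 FPKM in the CKO libraries. Every CKO library lay above every control, as in 7.33% of all rows, and the mean was 17.9% higher. The log2 difference of 0.24 ± 0.04 had an unadjusted p of 0.0013 but an adjusted p of 0.66 (limma), and was 0.26 without the library labelled Dnmt3a control replicate 2. The other immunoproteasome subunits had wide intervals, Psmb8 at 0.05 (−0.44 to 0.54) and Psmb9 at 0.16 (−0.79 to 1.10), and CKO replicate 2, at 1.07 FPKM, had the highest Psmb9 value of the 12 libraries.

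None of the transport and loading genes passed in the Dnmt3a line. Tap1 measured 0.650, 0.509 and 0.645 FPKM in control cortex against 0.719, 0.701 and 0.460 FPKM in the CKO libraries (0.04, −0.40 to 0.47), and without the library labelled Dnmt3a control replicate 2 its difference was −0.06. Tap2 (0.09, −0.20 to 0.39) and Tapbp (0.03, −0.09 to 0.15) overlapped as well, and Tapbp had the narrowest interval of the 3. Nlrc5 measured 0.0827, 0.0668 and 0.131 FPKM in control cortex against 0.0521, 0.0468 and 0.0617 FPKM in CKO cortex. All 3 CKO values were the lower ones, which held in 5.43% of all rows tested, with a log2 difference of −0.32 ± 0.13 in the fit with no minimum (adjusted p = 0.68, limma), and −0.42 ± 0.12 without the library labelled Dnmt3a control replicate 2 (adjusted p = 0.62). No gene of the pathway, interferon or microglial lists passed in the Dnmt3a line, with or without that library.

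The CKO effects of the 2 lines were set against each other with an interaction term, on the same 12 libraries as above. None of the 9 genes passed, against 2.12% of all symbols (0.291% called higher). H2-K1 had a difference of effects of 0.52 (95% interval −0.03 to 1.06, adjusted p = 0.50, limma), Tap1 of 0.53 (−0.04 to 1.10), Psmb8 of 0.43 (−0.15 to 0.998), H2-D1 of 0.33 (−0.03 to 0.69) and B2m of 0.31 (−0.04 to 0.67). These intervals all reach 0, so the larger fitted values in the Dnmt1 line were not shown to exceed those in the Dnmt3a line. Psmb10 had the opposite sign, −0.20 ± 0.07 (unadjusted p = 0.020, adjusted p = 0.33). The median of the 9 was 0.31 (all rows −0.03) and 8 lay above 0, as did 41.2% of all rows. The median was 0.34 without the library labelled Dnmt3a control replicate 2, when again none passed. By the same test 2 of the 16 other class I-like genes passed, Gm11127 (3.78 ± 0.19) and H2-Q4 (0.51 ± 0.11, adjusted p = 0.051), and 4 of the 23 interferon response genes, Isg15 (1.66), Lgals3bp (1.12), Rtp4 (1.083) and Ifitm3 (0.72). Without the library labelled Dnmt3a control replicate 2, H2-Q4 no longer passed (0.47 ± 0.12, adjusted p = 0.13, limma), while Gm11127 (3.84) and the same 4 interferon response genes did.

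The control groups of the lines were compared to see how far levels can be ordered over the 4 groups. None of the 9 genes passed between Dnmt1 and Dnmt3a controls, as 0.0071% of symbols did, and none did without the library labelled Dnmt3a control replicate 2. The median was −0.02, with 4 of 9 above 0 against 59.7% of all rows. The farthest apart were Psmb10, 0.18 higher in the Dnmt1 controls (adjusted p = 0.62, limma), and H2-D1, with −0.17 (adjusted p = 0.80). For H2-K1, H2-D1, B2m, Tap1 and Psmb8 the order of the group means was Dnmt1 CKO, Dnmt3a CKO, Dnmt3a control and Dnmt1 control. In B2m these means were 60.1 ± 0.465, 49.4 ± 6.53, 48.4 ± 8.48 and 47.2 ± 1.37 FPKM, so the last 3 were within their spread of each other. The spread itself was larger in the Dnmt3a line, where B2m had SDs of 6.53 and 8.48 FPKM against 0.465 and 1.37 FPKM in the Dnmt1 line.

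To describe a library by all 9 genes at once, each gene's log2 value was set against its mean over the 12 libraries and the 9 deviations were averaged. The Dnmt1 CKO libraries stood at 0.25, 0.30 and 0.21 and the Dnmt1 controls at −0.02, −0.20 and −0.17. The Dnmt3a controls stood at −0.25, −0.19 and 0.07 and the Dnmt3a CKO libraries at −0.06, 0.20 and −0.15. Dnmt3a CKO replicate 2 lay just below the lowest Dnmt1 CKO library, with 9 of 9 genes above their means, while 0 of 9 were above their means in Dnmt3a control replicate 1 and in the library labelled Dnmt3a control replicate 2.

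The microglial sum had its ends in the same libraries of the Dnmt3a line. It was 244 FPKM in Dnmt3a CKO replicate 2, the highest of the 12, and 186 FPKM in Dnmt3a control replicate 1, the lowest, which were the highest and the lowest libraries of that line in the class I average. Dnmt3a CKO replicate 2 also had the highest choroid plexus sum of the 12 libraries, 419 FPKM. The interferon sum did not single out Dnmt3a CKO replicate 2, at 37.4 FPKM, but was 45.8 FPKM in Dnmt3a control replicate 3, the highest of the Dnmt3a line. The part of any of these in the class I values was not tested.

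**Figure D4:**
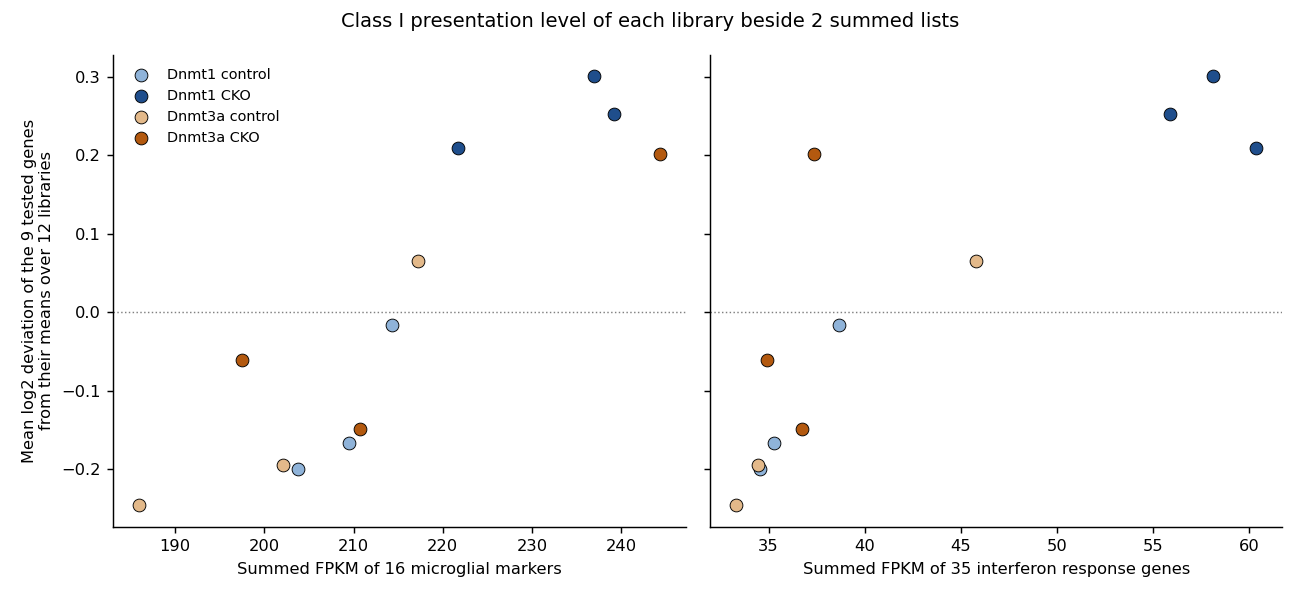
Mean log2 deviation of the 9 tested genes from their means (vertical axis) against the summed FPKM of 16 microglial markers (left) and of 35 interferon response genes (right), 1 point per library. Dnmt3a CKO replicate 2 stands at 244 FPKM and 0.20 in the left panel, beside the Dnmt1 CKO libraries, and apart from them at 37.4 FPKM in the right panel.

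The genes most like this average over the 12 libraries, by Pearson's r and with no test, were the lysosomal protease Ctss (0.93), C1qa (0.92), Nelfcd, a subunit of the negative elongation factor (0.92), Irgm1, an interferon-inducible GTPase (0.92), Fbxl6 (0.90), C1qb (0.89), Plek (0.89) and C1qc (0.89). All values come from the same 12 libraries, which share their depth and their group structure. Among the 9 genes themselves, H2-K1 was closest to the average that includes it (0.93) and Psmb10 farthest (0.49). Between pairs, B2m and H2-K1 had an r of 0.94, and 0.92 once the group means were taken out, and H2-D1 and H2-K1 had 0.90 and 0.85. Tap1 and Psmb9, which share their promoter window, had 0.54 and 0.39, and Psmb10 with B2m had 0.28 and 0.05.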

How the data were processed

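Reads of poly(A) RNA libraries (about 250 ng total RNA each) were aligned by the authors to mm10 with TopHat and quantified with Cufflinks, and the deposited values are FPKM per gene symbol. Versions, the annotation and any further scaling between libraries are not given in the sources used here. FPKM are not counts, so no count test was run. Of 23850 deposited rows, 302 exact duplicates were removed, and 0 columns were left unused. The 14115 rows whose mean over the 12 libraries reached 0.5 FPKM were tested on log2(FPKM + 0.1), a scale that understates changes of low genes, with limma 3.58.1 in R 4.3.3 (trended eBayes, Benjamini-Hochberg adjustment over all rows, 10% FDR), separately for the 6 libraries of each line, the interaction on all 12. The fits were tested on simulated data. Other steps used Python 3.11.15 with pandas 2.3.3.

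Groups came from the sample labels. The members and the gene lists were chosen with earlier results of these data known. All members are named; of a list, genes past 10% FDR and up to 4 others with the highest mean FPKM are named, and exceptions are marked. The letters of AANNGAAA and GGGATTCCC were settled after the sequences were seen. Promoter sequences are from RefSeq (GRCm38.p6). Same-numbered CKO and control libraries had deviations correlated at −0.08 to 0.04, so numbers were not taken as pairs. Alternatives were other pseudocounts, minimums, variance settings, scalings, thresholds, a replicate block, all libraries in 1 model and leaving out each library. List counts without Dnmt3a control replicate 2 and the fits of Nlrc5 without single libraries were chosen after seeing the data.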

Additional observations from a re-analysis of the deposited data

Results flagged for a closer look

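The Nlrc5 values differed in opposite directions in the 2 lines: all 3 CKO libraries lay above the controls in the Dnmt1 line and below them in the Dnmt3a line. Of the rows that reached the minimum, 6.38% lay above in the Dnmt1 line and 5.43% below in the Dnmt3a line. Those rows leave Nlrc5 out, and the share among rows as low as Nlrc5 was not computed. Neither CKO effect on Nlrc5 passed within its line in the fit with no minimum. It was 0.49 in the Dnmt1 line (adjusted p = 0.14, limma) and −0.32 in the Dnmt3a line (adjusted p = 0.68). The difference of the 2 effects was 0.81 on the log2(FPKM + 0.1) scale in the fit with no minimum (SE 0.18, adjusted p = 0.080, limma), past the threshold there, and the gene was not tested in the fit with the 0.5 FPKM minimum. Leaving out 1 library at a time, chosen as an alternative after seeing the data, gave 0.68 to 0.91 with adjusted p from 0.054 to 0.19, and the call held in 2 of 12 such fits: without the library labelled Dnmt3a control replicate 2 (0.91, 0.054) and, narrowly, without Dnmt3a control replicate 3 (0.68, 0.0999). Its levels, from 0.0447 to 0.153 FPKM over the 12 libraries, were the lowest of the 10 genes, and the number of reads behind them is unknown.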

How the results depend on the processing

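The 4 genes called higher in the Dnmt1 line became 1 with a replicate block, 2 with all 12 libraries in 1 model (H2-K1 and H2-D1) and 1 to 4 when single libraries were left out. With the replicate block, B2m passed (adjusted p = 0.069, limma) and H2-K1 (0.18), H2-D1 (0.12) and Tap1 (0.23) did not. B2m passed in 18 of 19 alternatives (0.17 with all 12 libraries in 1 model), H2-K1 in 17, H2-D1 in 15 and Tap1 in 6 of 18. The median of the members tested was 0.26 with a pseudocount of 1 and 0.27 with a minimum of 1 FPKM, which leaves 6 members and drops Tap1, Psmb8 and Psmb9. Symbols called in the Dnmt1 line, 443, became 161 with the replicate block, 262 at 5% FDR and 198 to 340 without single libraries. In the Dnmt3a line, 2 became 1 with a pseudocount of 1, a minimum of 1 FPKM, the replicate block, 1 model or 5% FDR, 17 with no minimum and 2 to 5 without single libraries. With no minimum, 1 member (Nlrc5) passed the interaction. Between the controls, 1 symbol became 0 with a pseudocount of 1, the replicate block or 1 model, 7 with no minimum, 6 with robust eBayes and 1 to 4 without single libraries.

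No called difference of a member changed sign in any alternative. Uncalled ones that did when single libraries were left out had these ranges: Psmb10 in the Dnmt1 line −0.0156 to 0.0859; in the Dnmt3a line B2m −0.0731 to 0.17, Tap1 −0.0619 to 0.21, Psmb8 −0.10 to 0.25 and Psmb9 −0.24 to 0.42; in the interaction Tap2 −0.0219 to 0.16 and Tapbp −0.00034 to 0.14; between the controls H2-K1 −0.26 to 0.11, B2m −0.13 to 0.11, Tap1 −0.16 to 0.0378, Tap2 −0.00063 to 0.18, Psmb8 −0.13 to 0.0373 and Psmb9 −0.20 to 0.22. Psmb9 between the controls was also −0.0121 with median ratio rescaling. The cause of these changes was not tested.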
